A study of Mus musculus with 6 samples.

Results

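Dexamethasone (Dex), a synthetic agonist of the glucocorticoid receptor (GR), was given to mice together with Zj7 or on its own, and the transcripts of the hypothalamic arcuate nucleus (ARC) were set side by side to describe what Zj7 added on top of Dex. Zj7 is a triterpenoid of the plant *Ziziphus jujube*, which the study also calls steroidal and selected as a GR modulator. The comparison holds the 4 libraries labelled Dex+Zj7 and Dex, 2 of each, out of 6 libraries in all, and covers all 21461 genes of the read count table. All genes entered the comparison, while the gene lists below were chosen with earlier results of these data known.

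The Dex+Zj7 mice received Dex at 10 mg/kg with Zj7 at 50 mg/kg, the Dex mice received Dex at 10 mg/kg, and the Vehicle mice, used here only to place the levels, received neither compound. The label of the combined treatment gives a single dose of 10 mg/kg, and the dose of Zj7 is that of the study's methods. All were 10-week-old male C57BL/6 mice of no stated mutant genotype, injected i.p. and sampled at 24 h. The Vehicle libraries are labelled as fed, and no feeding state is given for the other groups. Libraries of Zj7 without Dex were not analysed here, so an effect of Zj7 that does not depend on Dex and an effect on the response to Dex cannot be told apart. No source used here states that replicate libraries stem from different mice, and pooling is not described either. The p-values therefore cover the spread among these libraries alone, which may be technical.

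GR is a transcription factor that sits in the cytoplasm bound to chaperones until a glucocorticoid binds it, and then moves to the nucleus, where it raises genes with glucocorticoid response elements (GREs) and lowers others. In the ARC, neurons that make agouti-related peptide and neuropeptide Y drive feeding, and neurons that make pro-opiomelanocortin restrain it. The nucleus lies beside the floor of the third ventricle, which is lined by tanycytes, and its vessels carry the blood-brain barrier formed by endothelial cells and pericytes.

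The samples are labelled as brain, and the methods name dissected ARC. *Agrp*, *Npy*, *Pomc*, *Ghrh* and *Kiss1*, peptide genes of ARC neurons, had counts in all 6 libraries. *Pmch*, a peptide gene of the lateral hypothalamus, stood at 618 and 776 CPM (counts scaled to a common library size) with Dex+Zj7 and 694 and 721 CPM with Dex, so the dissected tissue reached beyond the ARC. Only 3 of 10 pituitary genes were in the table. In bulk tissue, fewer cells of a type and less RNA per cell cannot be told apart.

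The libraries held 58218989 and 61122938 counts with Dex+Zj7, 50704789 and 55542414 with Dex, and 53400496 to 57060342 with Vehicle. The smallest count is 1 in every library, since genes at 0 in any library had been removed before deposit, and a gene silent in either group cannot be seen. Dex replicate 1 stood apart. The median absolute difference in log2 CPM was 0.160 between the libraries of Dex, against 0.119 between those of Dex+Zj7 and 0.112 between those of Vehicle. Dex replicate 2 was as near to each Dex+Zj7 library, at 0.120 and 0.116, as those 2 libraries were to each other. On the second principal component, which held 16.8% of the variance, Dex replicate 1 lay at -35.4 and the other 5 libraries between -9.3 and 19.3. The cause was not tested, and the main lists and many of the genes that move without this library are given with and without it.

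Between Dex+Zj7 and Dex, 1 of 21461 genes passed an adjusted p of 0.05 in edgeR's quasi-likelihood test, or 0.00466% of those tested, and the next smallest adjusted p was 0.262. The gene was *Ptger1*. At an unadjusted p under 0.05, 670 genes (3.12%) were higher and 454 (2.12%) lower with Dex+Zj7, 1124 in all, against 1073 expected at that threshold if no gene differed. The 2 libraries of each side did not overlap for 3517 genes that were higher (16.4%) and 3194 that were lower (14.9%) with Dex+Zj7. The median absolute log2 fold change over all genes was 0.0949, against 0.19 between Dex and Vehicle, where 2464 genes were called. Among the 15424 genes with a mean of at least 1 CPM over the 4 libraries, the median standard error (SE) of a log2 fold change was 0.0928, and 34 of them differed by more than 1 on the log2 scale. DESeq2 called 48 genes higher and 18 lower and edgeR's exact test 63 and 34, and both tests called 60 genes in common, 90.9% of the calls of DESeq2 and 61.9% of those of the exact test. Apart from *Ptger1*, the genes below are described by their values and by an unadjusted p, which for any single gene did not pass the adjustment in the quasi-likelihood test.

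**Figure D1:**
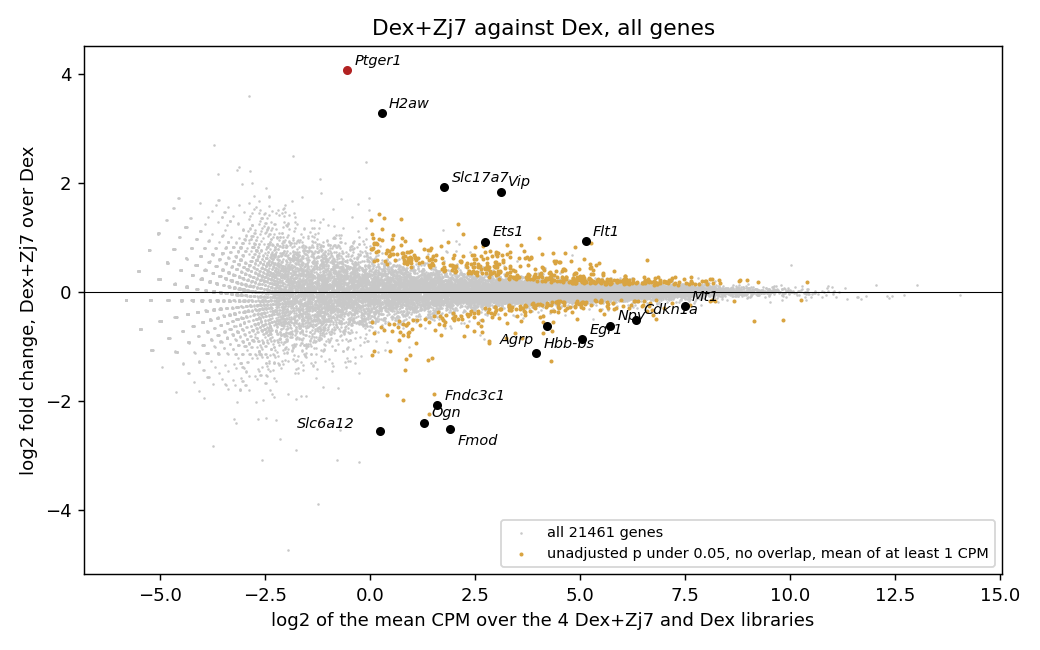
Log2 fold change of Dex+Zj7 over Dex for each of 21461 genes (y axis) against the log2 of its mean CPM over the 4 libraries (x axis). Grey points are all genes, orange points have an unadjusted p under 0.05, no overlap of the libraries and a mean of at least 1 CPM (469 higher, 222 lower), black points are labelled examples, and the red point is *Ptger1*, the 1 gene with an adjusted p under 0.05.

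In all, 37 lists of genes of known cell types and pathways were followed, with 764 of 791 listed genes matched. Their counts stand beside shares over all genes of 3.12% higher and 2.12% lower at an unadjusted p under 0.05. The shares without overlap were 16.4% higher and 14.9% lower. Beside a median log2 fold change of 0.0021 and 50.8% of values above 0 over all genes, the lists farthest from 0 were the red blood cell genes, with a median of -0.95, the endothelial and blood-brain barrier genes, with a median of 0.60, and the tanycyte genes, with a median of -0.35. Neurons and astrocytes as a whole stood near 0, with medians of 0.02 over 12 pan-neuronal genes and -0.02 over 12 astrocyte genes.

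**Figure D2:**
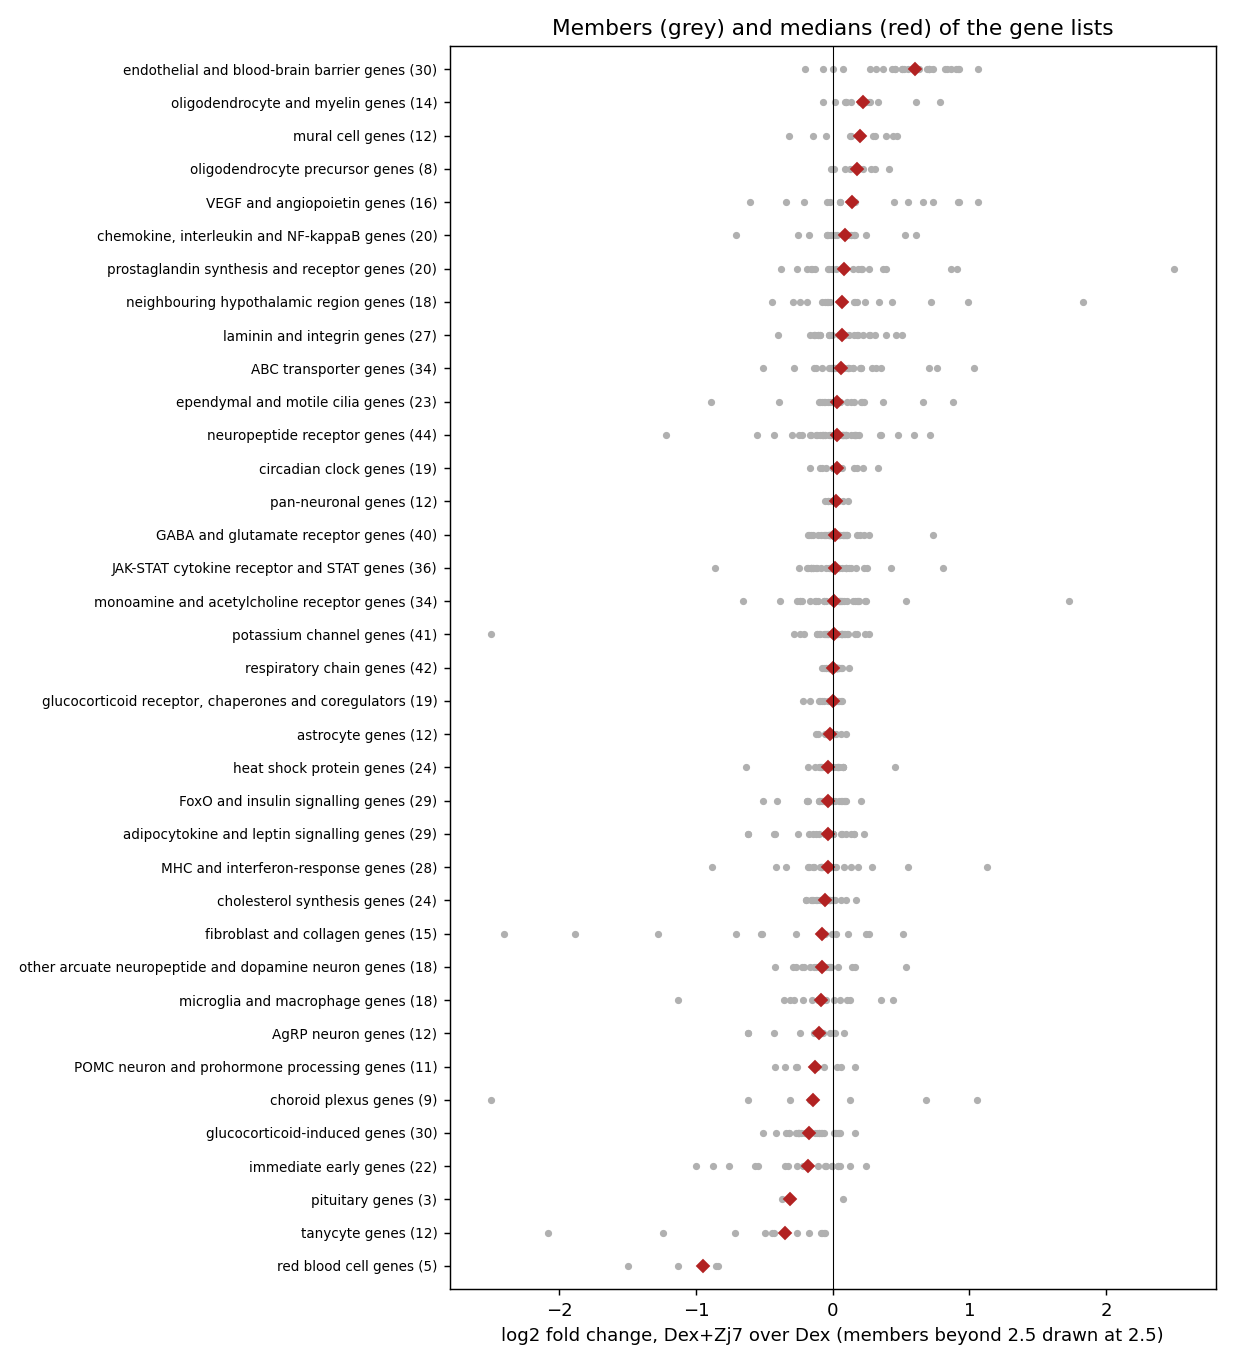
Log2 fold changes of Dex+Zj7 over Dex for the measured genes of 37 lists, 1 list a row. Grey points are genes, those beyond 2.5 in size are drawn at 2.5, and red marks are the medians, which run from -0.95 for the red blood cell genes to 0.60 for the endothelial and blood-brain barrier genes.

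*Ptger1* encodes the EP1 receptor for prostaglandin E2, a G protein-coupled receptor. It rose to 1.31 CPM in each Dex+Zj7 library, against 0.0790 and 0.0728 CPM with Dex, and stood at 2.34 and 2.60 CPM with Vehicle. In counts these were 75 and 80 reads with Dex+Zj7 and 4 in each Dex library. The groups did not overlap, and the log2 fold change was 4.07 (SE 0.34, 95% confidence interval 3.28 to 4.86, adjusted p = 0.0290). Beside it, Dex against Vehicle, which shares the Dex libraries, gave -4.99. Without any 1 of the 6 libraries the log2 fold change was 4.01 to 4.13 and the adjusted p was 0.0661 to 0.311, so the call was lost each time. The gene (gene ID 19216, chr8:83666644-83672756, GRCm38.p6) shares its span with another gene, and whether its reads were counted by strand was not stated, so reads of both may not be separated.

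Of 20 measured genes of prostaglandin synthesis and signalling, 3 were higher and 0 lower at an unadjusted p under 0.05, with a median of 0.08. Only 1 was higher without Dex+Zj7 replicate 2, without Dex replicate 1 or without Dex replicate 2, and the median was then 0.05 to 0.18. The second was *Ptgfr*, the receptor of prostaglandin F2 alpha, at 0.609 and 0.738 CPM with Dex+Zj7 and 0.375 and 0.364 CPM with Dex (log2 fold change 0.86, SE 0.35). The third was *Hpgds*, a prostaglandin D synthase of blood-derived and microglial cells, at 3.88 and 3.97 CPM with Dex+Zj7 and 3.08 and 2.91 CPM with Dex. Neither gene's groups overlapped. *Ptgds*, the prostaglandin D synthase abundant in brain and meninges, overlapped at 590 and 791 CPM with Dex+Zj7 and 965 and 606 CPM with Dex.

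Genes of the endothelium and the blood-brain barrier were higher with Dex+Zj7 than with Dex. Of 30 such genes, all measured, 23 had an unadjusted p under 0.05 on the higher side and 0 on the lower side. These counts stand beside 3.12% and 2.12% of all genes. The libraries did not overlap for 24 that were higher and 1 that was lower, beside 16.4% and 14.9% of all genes. The median log2 fold change was 0.60, and 28 of 30 lay above 0. The median was 0.46 to 0.67 without any 1 library, with 18 genes higher without Dex+Zj7 replicate 2 and 22 without Dex replicate 1. None of the 30 passed the adjustment over all genes in the quasi-likelihood test, while DESeq2 called 14 of them higher and the exact test 15. Summed over the list, levels were 726 and 761 CPM with Dex+Zj7, 645 and 599 CPM with Dex, and 759 and 723 CPM with Vehicle. In Dex against Vehicle, with the same Dex libraries, the median of the list was -0.94.

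Promoters of 3 of these genes are shown because they carry a site for ETS transcription factors, the family of *Ets1* and *Erg*, which endothelial cells express. They are RefSeq sequences of GRCm38.p6, written from 250 bases before to 50 bases after a transcript start along the gene's strand, and capitals mark the 7 letters AGGAAGT or, on the opposite strand, ACTTCCT. *Flt1* is at chr5:147725962-147726261 on the minus strand, *Slco1c1* at chr6:141524104-141524403 on the plus strand and *Eng* at chr2:32646345-32646644 on the plus strand. The site lies 53 bases before that start in *Flt1* and *Eng* and 129 bases before it in *Slco1c1*. In *Eng* and *Slco1c1* that start is the edge of the gene's span, and in *Flt1* it lies 427 bases inside the span, so that the *Flt1* site is within the annotated gene.
Flt1: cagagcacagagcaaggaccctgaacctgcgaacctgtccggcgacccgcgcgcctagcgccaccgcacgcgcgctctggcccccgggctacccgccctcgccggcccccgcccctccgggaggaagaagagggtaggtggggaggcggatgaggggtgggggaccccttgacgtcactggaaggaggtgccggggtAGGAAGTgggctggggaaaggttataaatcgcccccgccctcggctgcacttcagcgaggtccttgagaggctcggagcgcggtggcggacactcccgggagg
Slco1c1: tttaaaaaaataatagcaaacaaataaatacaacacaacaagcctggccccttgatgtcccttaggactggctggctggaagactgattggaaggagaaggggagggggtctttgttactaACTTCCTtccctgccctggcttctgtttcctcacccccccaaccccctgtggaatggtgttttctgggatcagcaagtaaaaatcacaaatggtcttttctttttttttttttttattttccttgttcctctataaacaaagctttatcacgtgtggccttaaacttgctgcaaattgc
Eng: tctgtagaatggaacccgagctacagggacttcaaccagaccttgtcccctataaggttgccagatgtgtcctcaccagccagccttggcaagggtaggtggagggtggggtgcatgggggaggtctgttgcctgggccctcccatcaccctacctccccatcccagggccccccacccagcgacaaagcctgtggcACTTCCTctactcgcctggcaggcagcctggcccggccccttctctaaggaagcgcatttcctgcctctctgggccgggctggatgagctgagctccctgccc
Both strands were searched, and the site was in 1585 of 19087 mouse promoters of the same length (8.3%) and at 1453 of 14918 genes (9.74%). Of the 21 listed genes with a promoter entry it was found at 8. Of those 8 genes, 5 had an unadjusted p under 0.05, and so did 10 of the 13 genes without it. Among the 321 annotated genes with a promoter entry that were higher at an unadjusted p under 0.05, without overlap and at 1 CPM or more, 9.97% held it. A match of letters is a description and does not show that a factor binds there.

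Receptors of the vessel wall stood among the members with the largest differences. *Flt1*, which encodes the VEGF receptor 1 that binds and limits VEGF-A, stood at 38.3 and 53.9 CPM with Dex+Zj7, 26.7 and 21.99 CPM with Dex, and 61.6 and 63.7 CPM with Vehicle. The groups did not overlap, the Dex+Zj7 libraries lay between the other groups, and the log2 fold change was 0.92 (SE 0.15, unadjusted p = 2.25e-04, 0.65 to 1.15 without any 1 library). *Kdr*, the main signalling receptor of VEGF-A, stood at 8.32 and 11.6 CPM with Dex+Zj7 and 6.12 and 5.86 CPM with Dex (log2 fold change 0.74, SE 0.16, and 0.46 without Dex+Zj7 replicate 2). *Tek*, the angiopoietin receptor TIE2, stood at 4.96 and 7.63 CPM with Dex+Zj7 and 3.47 and 2.59 CPM with Dex. Its log2 fold change was 1.06 (SE 0.23), with 0.70 without Dex+Zj7 replicate 2. *Tie1*, the partner receptor of TIE2, and *Ptprb*, the phosphatase that acts on TIE2, had log2 fold changes of 0.91 and 0.55. In each of these 5 genes both Dex+Zj7 libraries lay above both Dex libraries. *Vegfa* itself, the ligand, stood at 64.8 and 68.1 CPM with Dex+Zj7 and 62.1 and 59.9 CPM with Dex, a log2 fold change of 0.12. Of 16 genes of the VEGF and angiopoietin families, 6 were higher and 1 lower at an unadjusted p under 0.05, and the lower one was *Angptl2*, a secreted angiopoietin-like protein, at -0.61.

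Transporters and junction proteins of the barrier differed in the same direction. *Abcb1a* (chr5:8567091-8748575), the P-glycoprotein pump that exports drugs and steroids from the brain, stood at 29.6 and 32.2 CPM with Dex+Zj7, 20.2 and 17.8 CPM with Dex, and 32.0 and 27.9 CPM with Vehicle. The log2 fold change was 0.70 (SE 0.10, unadjusted p = 7.13e-05), and the groups did not overlap. It shares its span with *Rundc3b*, which was 53.7 and 49.6 CPM with Dex+Zj7 and 54.0 and 47.5 CPM with Dex. *Slco1c1*, a carrier of thyroid hormone, stood at 22.2 and 28.8 CPM with Dex+Zj7 and 15.7 and 15.6 CPM with Dex (log2 fold change 0.70, SE 0.12), and *Slco1a4*, an organic anion carrier of brain capillaries, had a log2 fold change of 0.90. *Cldn5*, the tight junction claudin of the barrier, stood at 12.3 and 18.8 CPM with Dex+Zj7 and 7.74 and 9.34 CPM with Dex. Here too both groups were apart, and the log2 fold change was 0.86 (SE 0.24), but 0.52 with an unadjusted p of 0.0733 without Dex+Zj7 replicate 2. *Abcg2*, another drug pump, stood at 15.9 and 15.2 CPM with Dex+Zj7 and 14.5 and 10.6 CPM with Dex, without overlap but with an unadjusted p of 0.0512. Not all barrier genes did so. *Slc2a1*, the glucose transporter GLUT1, stood at 147 and 104 CPM with Dex+Zj7 and 120 and 131 CPM with Dex, and *Tfrc*, the transferrin receptor, at 144 and 164 CPM with Dex+Zj7 and 177 and 145 CPM with Dex, and both overlapped. *Mfsd2a*, a lysolipid carrier, was the 1 member without overlap on the lower side, at 77.5 and 63.7 CPM with Dex+Zj7, 78.0 and 84.8 CPM with Dex and 29.0 and 35.2 CPM with Vehicle.

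Transcription factors and surface proteins of endothelial cells were higher as well, some of them outside the list. *Ets1*, a founding member of the ETS family and not in the list, stood at 8.46 and 9.09 CPM with Dex+Zj7, 4.74 and 4.53 CPM with Dex, and 10.3 and 12 CPM with Vehicle (log2 fold change 0.92, SE 0.13). *Pecam1*, the adhesion molecule CD31, stood at 13.6 and 14.6 CPM with Dex+Zj7 and 9.34 and 8.99 CPM with Dex (log2 fold change 0.63, SE 0.09). *Adgrf5*, an adhesion G protein-coupled receptor of endothelial cells, also outside the list, had the smallest p on the higher side among annotated genes at 1 CPM or more, with 50.9 and 52.2 CPM with Dex+Zj7, 37.9 and 33.5 CPM with Dex, and 48.3 and 50.2 CPM with Vehicle. In all 3 genes the libraries within a group differed less than the groups did, and the log2 fold change of *Adgrf5* was 0.53 (SE 0.07). *Vwf*, the von Willebrand factor that captures platelets, had a log2 fold change of 0.69, *Cdh5*, the VE-cadherin of endothelial junctions, 0.82 and *Eng*, a TGF-beta co-receptor, 0.71, which was 0.46 without Dex+Zj7 replicate 2.

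**Figure D3:**
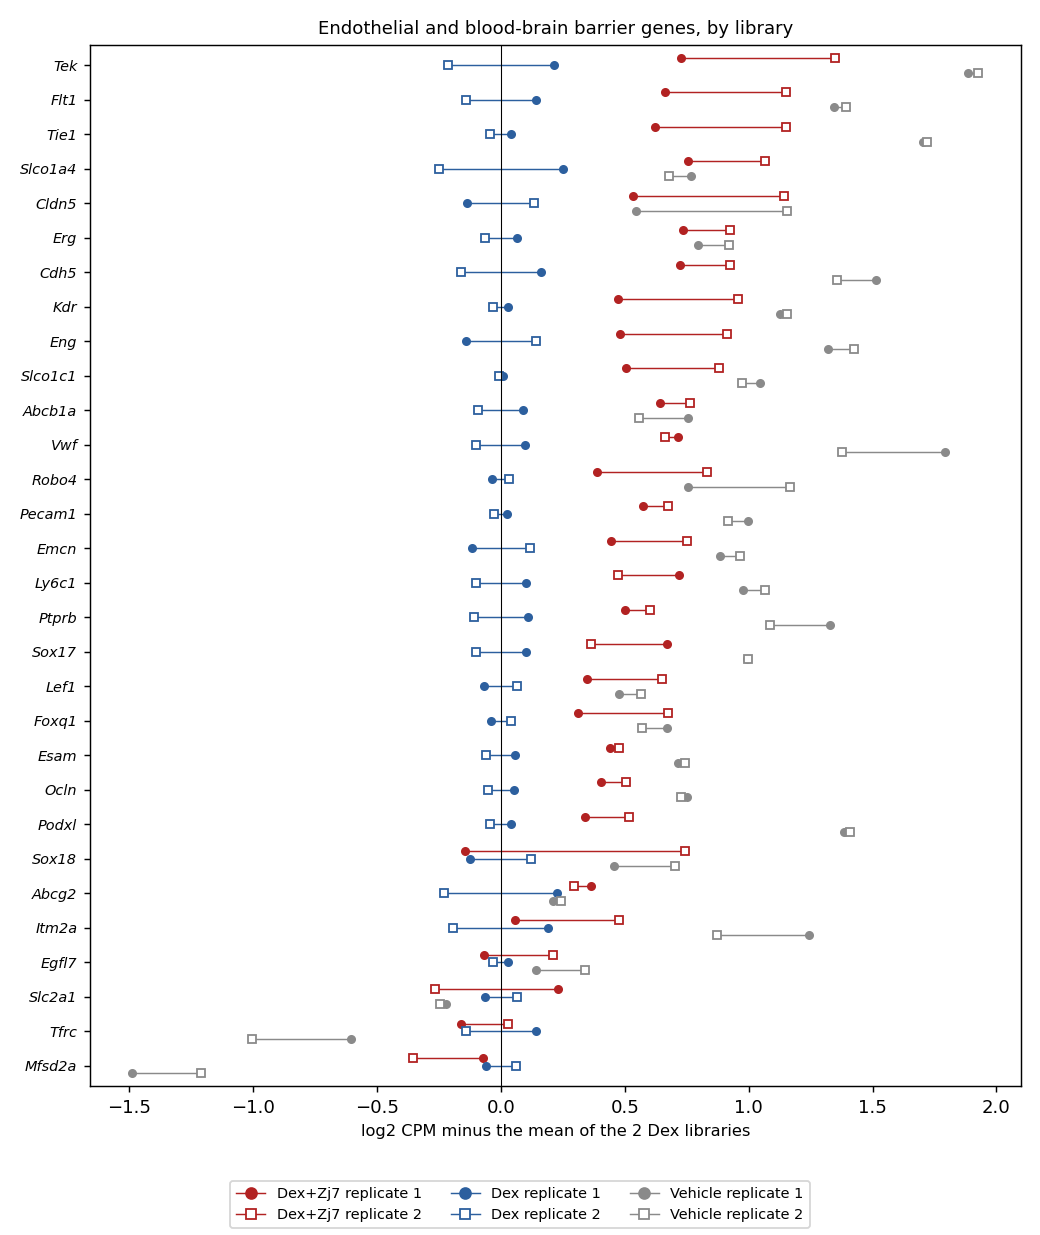
Level of 30 endothelial and blood-brain barrier genes in each of the 6 libraries, as log2 CPM minus the mean of the Dex libraries. Red marks are Dex+Zj7, blue Dex and grey Vehicle, with filled circles for replicate 1 and open squares for replicate 2, and the red marks lie above both blue marks in 24 genes.

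Around the endothelium, fewer genes differed. Of 12 mural cell genes, 3 were higher and 0 lower at an unadjusted p under 0.05, with a median of 0.20. Without Dex+Zj7 replicate 2, 1 was higher and the median was 0.11. *Rgs5*, a G protein regulator of pericytes, stood at 43.7 and 43.0 CPM with Dex+Zj7, 32.9 and 30.9 CPM with Dex, and 81.2 and 76.0 CPM with Vehicle (log2 fold change 0.44, SE 0.07). *Pdgfrb*, the receptor by which endothelial cells recruit pericytes, was 20.7 and 23.4 CPM with Dex+Zj7 and 18.7 and 17.3 CPM with Dex, again without overlap but with a log2 fold change of 0.29 that was 0.19 without Dex+Zj7 replicate 2, while *Cspg4*, the NG2 proteoglycan, overlapped. Summed mural levels were 154 and 170 CPM with Dex+Zj7, 141 and 134 CPM with Dex, and 275 and 251 CPM with Vehicle. *Col4a1*, a basement membrane collagen, stood at 105 and 95 CPM with Dex+Zj7 and 77.3 and 89.6 CPM with Dex. *Col4a2*, its partner chain, stood at 158 and 160 CPM with Dex+Zj7 and 124 and 144 CPM with Dex. The log2 fold changes of 0.26 in *Col4a1* and 0.24 in *Col4a2* were 0.16 and 0.14 without Dex replicate 1, and that of *Col4a1* then had an unadjusted p of 0.0784. *Fn1*, fibronectin, stood at 43.8 and 44.9 CPM with Dex+Zj7, 33.1 and 29.2 CPM with Dex, and 88.1 and 70.0 CPM with Vehicle (log2 fold change 0.51, SE 0.11). None of these 3 matrix genes overlapped. *Cxcl12*, a chemokine made by vessels and meninges, stood at 14.2 and 20.3 CPM with Dex+Zj7 and 12.9 and 9.74 CPM with Dex, a log2 fold change of 0.61 (SE 0.18). It was 0.32 without Dex+Zj7 replicate 2 and 0.42 without Dex replicate 2, with unadjusted p-values of 0.0882 and 0.0628.

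Of 14 oligodendrocyte and myelin genes, 6 were higher and 0 lower at an unadjusted p under 0.05, and the median was 0.22. Only 2 were higher without Dex+Zj7 replicate 2, where the median was 0.05, and 3 without Dex replicate 1. *Opalin*, a membrane protein of myelin, stood at 5.97 and 7.59 CPM with Dex+Zj7, 4.92 and 4.005 CPM with Dex, and 17.1 and 15.9 CPM with Vehicle. *Ugt8a*, the enzyme that makes galactosylceramide of myelin, stood at 21.9 and 22.7 CPM with Dex+Zj7, 17.7 and 17.8 CPM with Dex, and 62.3 and 68.7 CPM with Vehicle. Neither gene overlapped, and both Dex+Zj7 libraries stayed nearer to Dex than to Vehicle, with log2 fold changes over Dex of 0.61 (SE 0.16) and 0.33 (SE 0.08). Of 8 genes of oligodendrocyte precursors 3 were higher, and 0 were so when either Dex+Zj7 replicate 2 or Dex replicate 1 was left out.

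Both peptides of the AgRP neuron were lower with Dex+Zj7 than with Dex. *Agrp* (chr8:105566695-105579845), which encodes the antagonist of melanocortin receptors that promotes feeding, stood at 13.5 and 15.8 CPM with Dex+Zj7, 23.2 and 21.99 CPM with Dex, and 6.30 and 5.19 CPM with Vehicle. The groups did not overlap, and the Dex+Zj7 libraries lay between Vehicle and Dex. The log2 fold change over Dex was -0.62 (SE 0.12, 95% confidence interval -0.89 to -0.35, unadjusted p = 5.90e-04, adjusted p = 0.403) and -0.75 to -0.51 without any 1 library. *Npy* (chr6:49822710-49829507), the second feeding peptide of these cells, stood at 39.7 and 43.8 CPM with Dex+Zj7, 71.7 and 56.8 CPM with Dex, and 33.6 and 24.4 CPM with Vehicle. Again there was no overlap, and the log2 fold change over Dex was -0.62 (SE 0.15), with -0.45 without Dex replicate 1. Per length, the mean level of *Agrp* was 17.2 FPKM with Dex+Zj7 and 30.8 FPKM with Dex, and that of *Npy* 67.3 FPKM with Dex+Zj7 and 103.7 FPKM with Dex. *Lepr*, the leptin receptor, was 11.5 and 10.4 CPM with Dex+Zj7 and 16.7 and 12.9 CPM with Dex, without overlap, with a log2 fold change of -0.43 (SE 0.16) that was -0.24 without Dex replicate 1. DESeq2 gave *Agrp* an adjusted p of 0.00232.

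The other genes of the AgRP neuron moved less. Of 12 in the list, 0 were higher and 3 lower at an unadjusted p under 0.05, namely *Agrp*, *Npy* and *Lepr*, and the median was -0.10. The libraries did not overlap for 6 that were lower. Over all genes, 2.12% were lower at that threshold and 14.9% were lower without overlap. *Otp*, a homeobox factor of these neurons, was 45.8 and 46.5 CPM with Dex+Zj7 and 48.3 and 49.2 CPM with Dex, and *Asb4*, a ubiquitin ligase adaptor of arcuate neurons, had a log2 fold change of -0.13. *Bsx*, the homeobox factor that drives *Agrp* and *Npy*, overlapped at 14.3 and 14.6 CPM with Dex+Zj7 and 13.8 and 14.98 CPM with Dex.

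Among other arcuate peptides, *Sst*, which encodes the inhibitory peptide somatostatin, was 92.6 and 89.9 CPM with Dex+Zj7 and 110 and 135 CPM with Dex, without overlap. The log2 fold change was -0.42 (SE 0.10) and -0.26 without Dex replicate 2. *Tac1*, the precursor of substance P, was 57.5 and 61.6 CPM with Dex+Zj7 and 75.3 and 68.2 CPM with Dex (log2 fold change -0.27, SE 0.08). *Pomc*, the precursor of the appetite-restraining melanocortin, was 21.2 and 21.4 CPM with Dex+Zj7 and 27.6 and 29.6 CPM with Dex, but 28.0 and 131 CPM with Vehicle. With that spread its log2 fold change of -0.42 had an SE of 0.54 and an unadjusted p of 0.458. *Ghrh*, growth hormone-releasing hormone, and *Th*, the enzyme that marks dopamine neurons, overlapped. Of 18 genes of other arcuate neurons 0 were higher and 2 lower, and of 11 genes of POMC neurons and prohormone processing 0 were higher and 1 lower, *Pcsk1*, a prohormone convertase, at -0.26. The *Pcsk1* value was -0.11 without Dex replicate 1, with an unadjusted p of 0.234.

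Genes that glucocorticoids induce through GR were lower in Dex+Zj7 replicate 2, while in Dex+Zj7 replicate 1 they stood near Dex. Of 30 such genes, 0 were higher and 5 lower at an unadjusted p under 0.05, beside 3.12% and 2.12% of all genes. The libraries did not overlap for 8 that were lower, beside 14.9% of all genes, and the median was -0.18. Dex+Zj7 replicate 2 lay below both Dex libraries in 25 of the 30 and above both in 0. Dex+Zj7 replicate 1 lay below both in 8 and above both in 10. The share of all genes with a single library beyond both Dex libraries was not computed. The median was -0.0068 with 3 lower genes without Dex+Zj7 replicate 2, and -0.26 with 14 lower genes without Dex+Zj7 replicate 1. The median log2 ratio to Dex replicate 1 was 0.0012 in Dex+Zj7 replicate 1 and -0.25 in Dex+Zj7 replicate 2. To Dex replicate 2 it was 0.0187 and -0.36. Summed levels were 2456 and 2066 CPM with Dex+Zj7, 2528 and 2556 CPM with Dex, and 1411 and 1308 CPM with Vehicle. In both Dex+Zj7 libraries the sum stood nearer to Dex than to Vehicle, and the median of the list in Dex against Vehicle, with the same Dex libraries, was 0.85.

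The metallothioneins, small proteins that bind zinc, differed in both libraries. *Mt1* (chr8:94178883-94180327) stood at 158 and 168 CPM with Dex+Zj7, 187 and 206 CPM with Dex, and 104 and 106 CPM with Vehicle. No library of one group crossed into the other, and the log2 fold change over Dex was -0.27 (SE 0.07). *Mt2* stood at 99.5 and 87.6 CPM with Dex+Zj7, 122 and 115 CPM with Dex, and 65.5 and 66.4 CPM with Vehicle, again without overlap (log2 fold change -0.34, SE 0.07). The *Mt1* promoter is shown because it holds the 9 letters ACANNNTGT of a GRE core, in capitals, 92 bases before the transcript start of the RefSeq entry (GRCm38.p6, chr8:94178839-94179138, plus strand). That start lies 206 bases inside the gene's span, so the core is within the annotated gene. The marked letters differ from the *MT1*-GRE printed in the study's supplement, which the sequence shown does not hold.
Mt1: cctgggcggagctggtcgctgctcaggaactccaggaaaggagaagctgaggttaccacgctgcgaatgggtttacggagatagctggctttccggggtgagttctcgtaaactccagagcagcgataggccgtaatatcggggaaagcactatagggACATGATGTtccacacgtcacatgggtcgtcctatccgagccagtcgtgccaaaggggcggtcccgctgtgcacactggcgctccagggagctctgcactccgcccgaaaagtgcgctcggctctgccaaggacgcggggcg
Both strands were searched, and 942 of 19087 promoters (4.94%) and 881 of 14918 genes (5.91%) held the core. In the list 5 of 27 genes with a promoter entry did, among them *Sgk1* and *Mt1*, and 1 of these 5 had an unadjusted p under 0.05, against 4 of the other 22. The letters alone do not show that GR binds there, and GR sites far from the start were not searched.

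*Cdkn1a*, the cell cycle inhibitor p21, stood at 82.9 and 50.1 CPM with Dex+Zj7, 95.7 and 94.1 CPM with Dex, and 11.1 and 10.3 CPM with Vehicle. Without overlap of the groups, the log2 fold change over Dex was -0.51 (SE 0.18), but -0.92 without Dex+Zj7 replicate 1 and -0.20 without Dex+Zj7 replicate 2. *Sgk3*, a kinase related to the serum and glucocorticoid kinase, was 49.0 and 32.6 CPM with Dex+Zj7, 57.6 and 50.5 CPM with Dex, and 8.08 and 8.25 CPM with Vehicle. Its log2 fold change was -0.41 (SE 0.16), with -0.73 without Dex+Zj7 replicate 1 and -0.15 without Dex+Zj7 replicate 2. In several textbook GR targets only Dex+Zj7 replicate 2 lay below the Dex libraries, and the groups overlapped. *Fkbp5*, a co-chaperone that limits GR, was 125 and 93.9 CPM with Dex+Zj7, 127 and 122 CPM with Dex, and 36.0 and 31.4 CPM with Vehicle. *Tsc22d3*, the leucine zipper GILZ, was 128 and 85.6 CPM with Dex+Zj7 and 124 and 122 CPM with Dex. *Plin4*, a lipid droplet protein, was 126 and 82.5 CPM with Dex+Zj7 and 117 and 128 CPM with Dex. The same held for *Sgk1*, the serum and glucocorticoid kinase, at 174 and 131 CPM with Dex+Zj7 and 177 and 170 CPM with Dex. *Per1*, a clock gene that GR induces, differed in both libraries, at 72.8 and 75.4 CPM with Dex+Zj7, 85.0 and 81.3 CPM with Dex, and 74.8 and 67.8 CPM with Vehicle (log2 fold change -0.17). *Nr3c1*, the gene of GR, was 93.7 and 94.2 CPM with Dex+Zj7 and 104 and 96.1 CPM with Dex, without overlap (log2 fold change -0.09, SE 0.07, unadjusted p = 0.203).

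**Figure D4:**
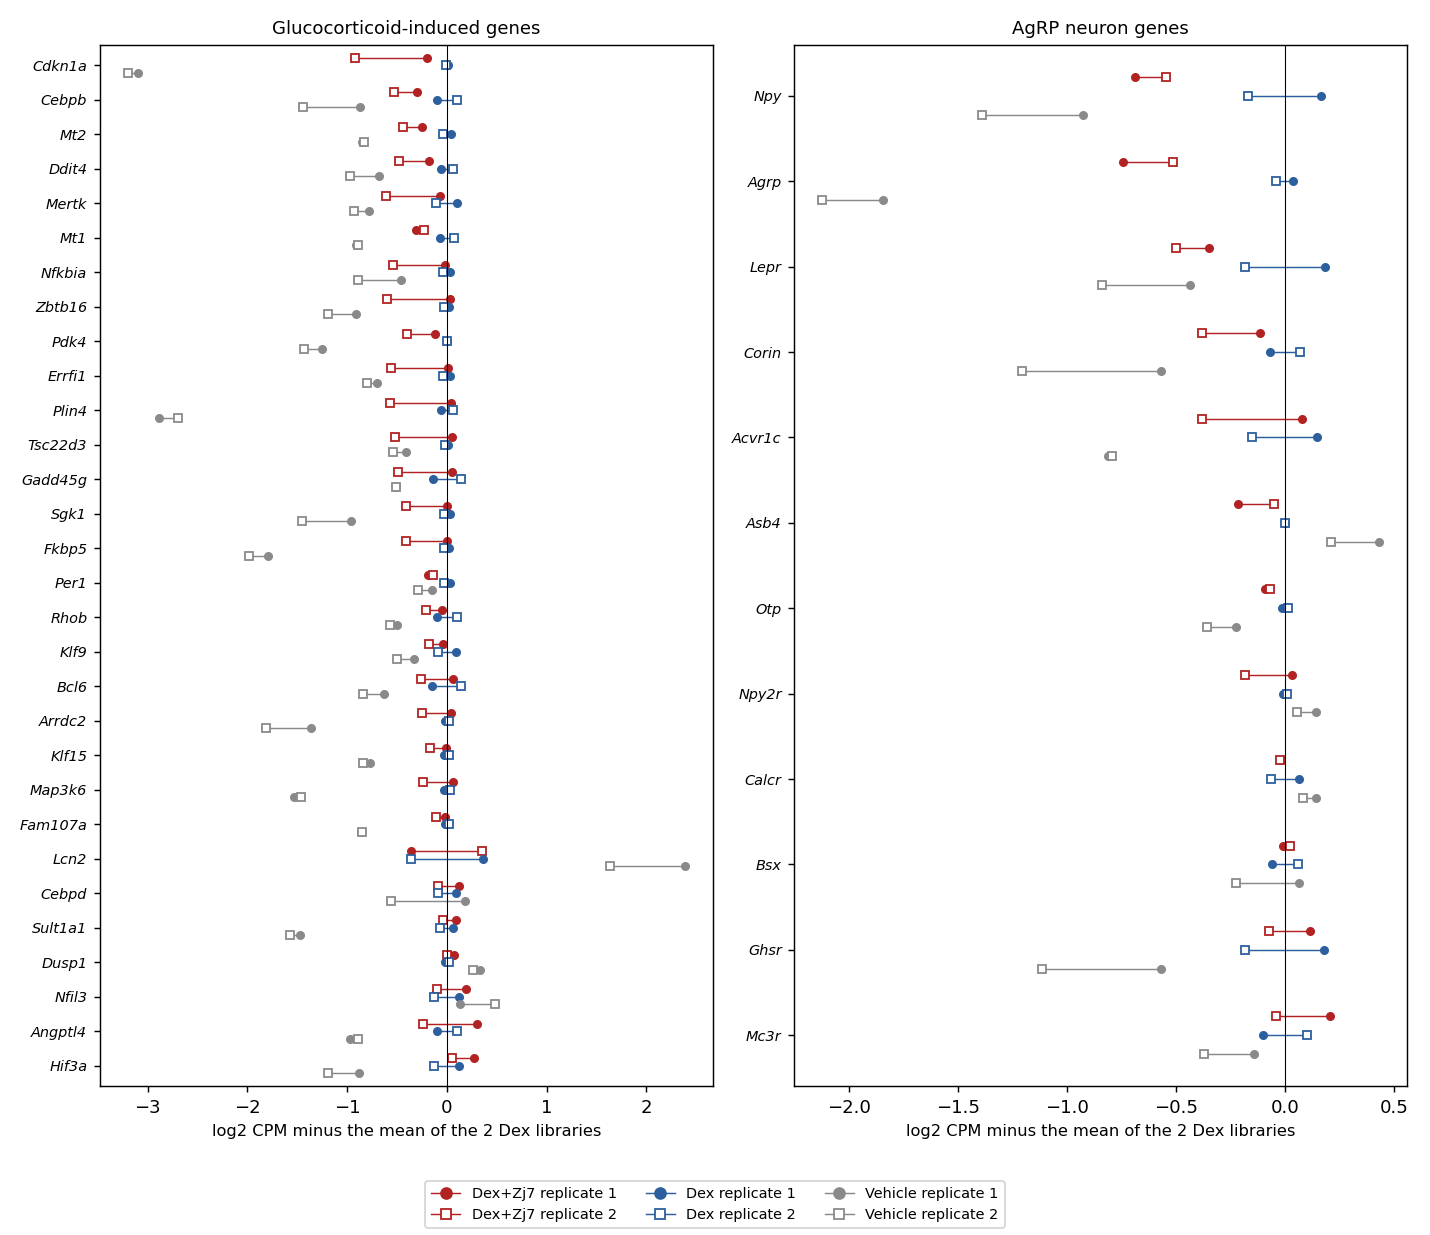
Level of 30 glucocorticoid-induced genes and 12 AgRP neuron genes in each library, as log2 CPM minus the mean of the Dex libraries. Red marks are Dex+Zj7, blue Dex and grey Vehicle, with filled circles for replicate 1 and open squares for replicate 2. In the glucocorticoid-induced genes the open red squares lie below both blue marks in 25 of 30 and above both in 0. The filled red circles lie below both in 8 and above both in 10. The same shares over all genes were not computed.

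Immediate early genes, which neurons switch on within minutes of activity, held 0 higher and 5 lower of 22 at an unadjusted p under 0.05, with a median of -0.18. *Egr1*, a zinc finger factor, was 27.0 and 20.0 CPM with Dex+Zj7, 48.4 and 37.5 CPM with Dex, and 37.6 and 45.3 CPM with Vehicle. The groups did not overlap, and the log2 fold change over Dex was -0.87 (SE 0.16) and -0.68 without Dex replicate 1. *Fos*, a subunit of AP-1, was 9.62 and 6.81 CPM with Dex+Zj7, 16.8 and 11 CPM with Dex, and 16.2 and 18.2 CPM with Vehicle. Its log2 fold change was -0.76 (SE 0.22), but -0.42 without Dex replicate 1. *Junb*, its partner in AP-1, was 8.84 and 10.7 CPM with Dex+Zj7 and 14.5 and 14.1 CPM with Dex (log2 fold change -0.55, SE 0.13). *Bdnf*, a neurotrophin that follows activity, was 15.8 and 13.9 CPM with Dex+Zj7 and 20.3 and 20.0 CPM with Dex (log2 fold change -0.44, SE 0.09). It belongs to the list of neighbouring regions and is not among these 22. None of these genes overlapped. *Arc*, a synaptic gene of the same class, did, at 7.79 and 9.25 CPM with Dex+Zj7 and 8.07 and 9.07 CPM with Dex. Without Dex replicate 1 the median of the list was -0.04, with 4 lower genes and 1 higher.

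All 12 tanycyte genes had a log2 fold change below 0, 6 of them with an unadjusted p under 0.05. *Rax*, the homeobox factor that marks tanycytes, was 1.04 and 1.12 CPM with Dex+Zj7, 3.32 and 1.82 CPM with Dex, and 2.72 and 2.695 CPM with Vehicle. Both Dex+Zj7 values lay below both Dex values, and the log2 fold change over Dex was -1.24 (SE 0.30), but -0.75 without Dex replicate 1. *Dio2*, the deiodinase that makes active thyroid hormone, was 19.4 and 11.1 CPM with Dex+Zj7 and 29.5 and 20.5 CPM with Dex. Its log2 fold change was -0.71 (SE 0.24), but -0.43 when Dex replicate 1 was left out and -0.37 when Dex+Zj7 replicate 2 was. *Fndc3c1*, a transmembrane fibronectin domain gene, was 1.36 and 0.951 CPM with Dex+Zj7, 7.30 and 2.51 CPM with Dex, and 6.61 and 7.35 CPM with Vehicle, without overlap, and its log2 fold change of -2.08 was -1.12 without Dex replicate 1. In each of these genes Dex replicate 1 held the higher of the Dex values. Summed over the list, levels were 160 and 161 CPM with Dex+Zj7, 227 and 176 CPM with Dex, and 245 and 224 CPM with Vehicle. The median of -0.35 became -0.11, with 2 lower genes, without Dex replicate 1.

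Genes of blood and of the meninges also differed most from Dex replicate 1. All 5 measured red blood cell genes were lower and had an unadjusted p under 0.05, with a median of -0.95 over all libraries and -0.53 without Dex replicate 1, when all 5 still passed. *Hbb-bs*, a beta globin, was 10.3 and 9.25 CPM with Dex+Zj7, 27.5 and 15.2 CPM with Dex, and 22.9 and 21.7 CPM with Vehicle. *Alas2*, the heme synthesis enzyme of red cell precursors, was 0.487 and 0.394 CPM with Dex+Zj7 and 1.70 and 0.801 CPM with Dex. Neither overlapped. The globin genes have near-identical copies among which reads may be split, so the values of single copies are uncertain. The part of residual blood in these values was not tested, and the summed levels of the red blood cell genes were 30.3 and 30.8 CPM with Dex+Zj7, 75.6 and 44.4 CPM with Dex, and 70.1 and 64.0 CPM with Vehicle.

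In the fibroblast list, *Ogn*, a small proteoglycan of the meninges, was 0.696 and 0.853 CPM with Dex+Zj7, 7.34 and 0.965 CPM with Dex, and 13.2 and 6.50 CPM with Vehicle. Its log2 fold change of -2.41 was -0.31 without Dex replicate 1 (unadjusted p = 0.581). *Slc6a13*, a GABA transporter of the meninges, was 1.46 and 1 CPM with Dex+Zj7 and 6.99 and 2.15 CPM with Dex, and *Igf2*, a growth factor of meninges and choroid plexus, was 11.6 and 11.7 CPM with Dex+Zj7 and 44.4 and 12.2 CPM with Dex. These genes did not overlap, and in all 3 the difference was largest against Dex replicate 1. Without that library the log2 fold change of *Slc6a13* was -0.81, against -1.89 with it, and that of *Igf2* was -0.07. *Fmod*, a related proteoglycan outside the list, followed at 1.18 and 1.05 CPM with Dex+Zj7 and 10.96 and 1.97 CPM with Dex. Its log2 fold change of -2.52 was -0.82 without Dex replicate 1. Of the 15 fibroblast and collagen genes, 3 were higher and 3 lower at an unadjusted p under 0.05, with 0 lower without Dex replicate 1 or without Dex+Zj7 replicate 2, 1 lower without Dex+Zj7 replicate 1 and 6 lower without Dex replicate 2.

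Genes of neighbouring regions stood on both sides. Of 18, 5 were higher and 2 lower at an unadjusted p under 0.05, with a median of 0.07, and without Dex replicate 1 these counts were 1 and 3. *Vip*, a peptide of the suprachiasmatic nucleus, was 14.5 and 12.7 CPM with Dex+Zj7, 1.58 and 5.99 CPM with Dex, and 13.7 and 8.60 CPM with Vehicle. Both Dex+Zj7 values lay above both Dex values, and the log2 fold change over Dex was 1.83 (SE 0.45), but 1.18 without Dex replicate 1 and 3.10 without Dex replicate 2. *Vipr2*, its receptor, was 10.4 and 9.76 CPM with Dex+Zj7 and 5.31 and 6.96 CPM with Dex (log2 fold change 0.71, SE 0.16). *Prokr2*, the receptor of the clock output peptide prokineticin 2, was 7.99 and 7.68 CPM with Dex+Zj7 and 4.54 and 5.83 CPM with Dex (log2 fold change 0.59, SE 0.15). *Six6*, a homeobox factor of the same nucleus, was 10.1 and 11.3 CPM with Dex+Zj7 and 7.56 and 8.23 CPM with Dex. In these genes Dex replicate 1 held the lowest of the 4 values, and how much of that nucleus each dissection held was not tested. *Vipr2* and *Prokr2* belong to the neuropeptide receptor list and are not among the 18. *Oxt*, oxytocin of the paraventricular and supraoptic nuclei, was 58.2 and 46.0 CPM with Dex+Zj7 and 38.6 and 43.6 CPM with Dex. *Slc17a7*, a glutamate transporter of cortex and thalamus, was 5.48 and 5.36 CPM with Dex+Zj7, 0.730 and 2.11 CPM with Dex, and 0.536 and 3.80 CPM with Vehicle. Its log2 fold change over Dex of 1.92 (SE 0.70) was 1.36 without Dex replicate 1.

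**Figure D5:**
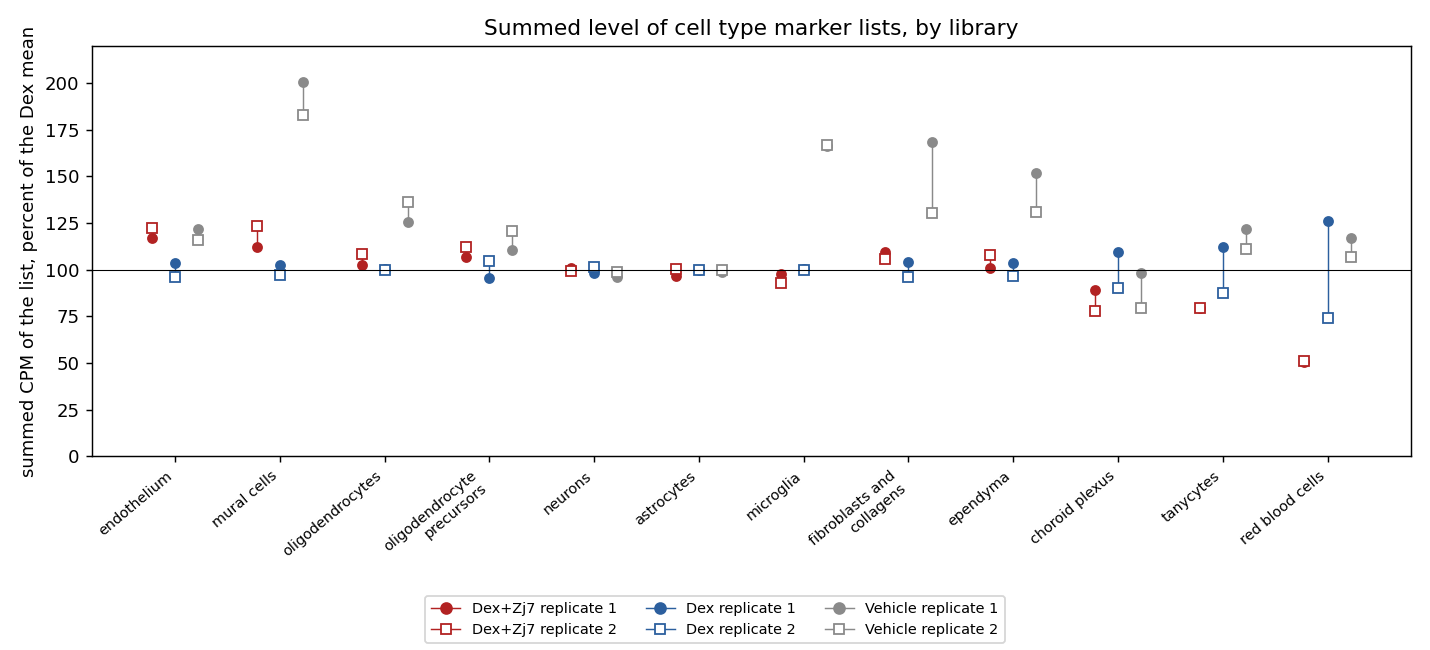
Summed CPM of 12 lists of cell type genes in each library, as a percent of the mean of the Dex libraries. Red marks are Dex+Zj7, blue Dex and grey Vehicle, with filled circles for replicate 1 and open squares for replicate 2. The red marks lie above both blue marks for the endothelial, mural, oligodendrocyte, oligodendrocyte precursor, and fibroblast and collagen lists. The sum of the last list includes the abundant matrix genes *Col4a1*, *Col4a2* and *Fn1*. The median log2 fold change of that list was -0.08, with 5 of 15 genes above 0. They lie below both for the tanycyte, red blood cell (75.6 and 44.4 CPM in the Dex libraries), microglia and choroid plexus lists. For the neuron, astrocyte and ependyma lists red and blue overlap.

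Pathways that the study follows are given beside all genes, of which 3.12% were higher and 2.12% lower at an unadjusted p under 0.05. Of 29 genes of FoxO and insulin signalling 0 were higher and 2 lower at an unadjusted p under 0.05, *Cdkn1a* and *Sgk3*, with a median of -0.03. Of 29 genes of adipocytokine and leptin signalling 0 were higher and 3 lower, *Agrp*, *Npy* and *Lepr*, with a median of -0.04. Of 36 cytokine receptor and STAT genes 1 was higher and 0 lower, *Il2rg*, the common gamma chain of interleukin receptors, at 0.644 and 0.722 CPM with Dex+Zj7 and 0.513 and 0.273 CPM with Dex. *Bcl6*, a transcriptional repressor that FoxO factors induce, and *Ptpn11*, the phosphatase SHP2 of leptin receptor signalling, overlapped. Of 27 laminin and integrin genes 3 were higher and 0 lower, integrin subunits *Itga1*, *Itga6* and *Itga4*, at 0.47, 0.27 and 0.31. Without Dex+Zj7 replicate 2, 0 of the 27 were higher and 1 was lower, and without Dex replicate 2 the value of *Itga1* was 0.27. The other small counts in this and the next paragraph also changed when single libraries were left out.

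Among receptors, 4 of 44 neuropeptide receptor genes were higher and 1 lower at an unadjusted p under 0.05. *Vipr2* and *Prokr2* were among the 4. Of 40 genes of GABA and glutamate receptors, 2 were higher and 1 lower. Over all genes the shares were 3.12% higher and 2.12% lower. *Htr3a*, a subunit of the serotonin-gated channel, was 2.84 and 2.79 CPM with Dex+Zj7, 2.01 and 1.86 CPM with Dex, and 1.32 and 1.39 CPM with Vehicle. It did not overlap, and both Dex+Zj7 libraries lay farther from Vehicle than those of Dex did (log2 fold change over Dex 0.54, SE 0.19). In cholesterol synthesis 0 of 24 genes were higher and 2 lower, with a median of -0.06. Of 42 respiratory chain genes 0 passed in either direction, with a median of 0.0011, and the same held for 28 genes of antigen presentation and the interferon response and for 18 microglia and macrophage genes, with medians of -0.04 and -0.09.

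Outside the lists, the annotated genes at 1 CPM or more with the smallest p on the lower side were *Tmem267*, a transmembrane protein gene, at 14.7 and 13.6 CPM with Dex+Zj7 and 19.8 and 21.9 CPM with Dex, and *Lmx1a*, a homeobox factor of neurons at the hypothalamic and midbrain floor, at 4.59 and 5.02 CPM with Dex+Zj7 and 8.25 and 7.72 CPM with Dex. Neither overlapped, and the log2 fold changes were -0.56 and -0.73. On the higher side, *Adcy4*, an adenylate cyclase, was 1.34 and 2.05 CPM with Dex+Zj7, 0.553 and 0.710 CPM with Dex, and 2.56 and 3.54 CPM with Vehicle. *Gbp9*, a guanylate-binding GTPase, was 1.34 and 2.31 CPM with Dex+Zj7, 0.671 and 0.765 CPM with Dex, and 4.05 and 3.42 CPM with Vehicle. Both stood below Vehicle and above Dex in each library, with log2 fold changes over Dex of 1.42 and 1.35, the second of which was 0.89 without Dex+Zj7 replicate 2.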

How the data were processed

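Poly(A) RNA of dissected ARC was sequenced with a stranded kit. The authors cleaned the reads, including the removal of PCR duplicates, mapped them to mm10 (Bowtie2 2.3.4.1 and HISAT2 2.1.0 in the submitters' processing notes) and assembled transcripts with StringTie 2.1.3b. Whether the counting used strand was not stated. The deposited read counts are raw integers per gene, and the authors dropped any gene with no read in at least 1 library. The FPKM values deposited beside them gave levels per length only. A further 12 per-sample columns of TPM and normalized values were not used here, nor were the authors' columns of fold changes and p-values.

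Groups and replicate numbers came from the labels. CPM was computed with TMM factors. All 6 libraries entered 1 quasi-likelihood fit (edgeR 4.0.16, R 4.3.3) with no covariate or further filter, with Benjamini-Hochberg adjustment across the 21461 genes. Dividing the absolute log2 fold change by the root of F gave the SE. DESeq2 1.42.0, limma 3.58.1 (voom) and edgeR's exact test were among the alternatives, beside other scaling factors and filters, a fit of the 4 libraries alone, a replicate block and leaving out each library. At 50704789 to 61122938 counts per library, the spread between 2 libraries sets the precision for most genes. Positions and promoters are from RefSeq (GRCm38.p6), with positions for 21404 genes.

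Genes named are the adjusted call, the 12 in each direction with the smallest p and the 5 with the largest change (unadjusted p under 0.05, mean of at least 1 CPM, no overlap, annotated genes), those the study names, and up to 4 members of each list. Not all of these are named in the text, and other list members, overlapping genes and genes with a motif were named after their values were seen. The members and lists were chosen with earlier results of these data known. A few list members and overlapping genes are not reported here.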

Additional observations from a re-analysis of the deposited data

How the results depend on the processing

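The number of genes at an adjusted p under 0.05 was 1 with RLE factors, with total counts, with edgeR's filter on low counts, with a mean of at least 1 CPM and with limma-voom. It was 66 with DESeq2, 97 with edgeR's exact test, 0 with only the Dex+Zj7 and Dex libraries, and 0 to 3 when 1 library was left out. The 3 calls, *Zic1* on the higher side and *Hbb-bs* and *Fndc3c1* on the lower, came without Dex replicate 2, and *Ptger1* was not among them. At an unadjusted p under 0.05, DESeq2 gave 422 higher and 262 lower genes, and leaving out 1 library gave 361 to 1265 higher and 392 to 1042 lower, the highest of both without Dex replicate 2 and the lowest of both without Dex+Zj7 replicate 2. With a mean of at least 1 CPM, 2329 of the 15531 genes kept were higher without overlap, against 3517 of all 21461 genes. Same-numbered libraries deviated from their group means with correlations of -0.01 to 0.10. With 2 libraries per group, these values cannot settle whether the numbers pair the libraries. The fit with the replicate number as a block called 0 genes. At an unadjusted p under 0.05 that fit gave 886 higher and 614 lower genes, against 670 and 454 without the block. Of the 30 glucocorticoid-induced genes it gave 1 higher and 12 lower, against 0 and 5.

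Among single genes, the sign changed only in ones whose groups overlapped. *Slc2a1* had -0.0025 with RLE factors, -0.001 with total counts, -0.0032 with edgeR's filter, -0.0058 with at least 1 CPM, -0.0021 with DESeq2 and with only the 4 libraries, -0.0194 with limma-voom and -0.0111 with the replicate block, and *Bsx* had -1e-04 with at least 1 CPM. When 1 library was left out, the log2 fold change ran between -0.27 and 0.22 in *Slc2a1*, -0.20 and 0.13 in *Pmch*, -0.48 and 0.19 in *Ptgds*, -0.063 and 0.12 in *Rundc3b*, and -0.20 and 0.080 in *Tfrc*. It ran between -0.051 and 0.068 in *Bsx*, -0.14 and 0.25 in *Th*, -0.27 and 0.0020 in *Ghrh*, -0.52 and 0.048 in *Tsc22d3*, -0.57 and 0.033 in *Plin4*, -0.15 and 0.11 in *Arc*, and -0.27 and 0.051 in *Bcl6*.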
